A study of Mus musculus with 16 samples.

Results

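Neurexins, neuroligins and leucine-rich repeat transmembrane proteins (LRRTMs) are adhesion proteins of the synapse, and the transcripts of 9 of their genes were followed in CA1, a subfield of the hippocampus. The genes were 2 neurexins (Nrxn2 and Nrxn3), 3 neuroligins (Nlgn1, Nlgn2 and Nlgn3) and 4 LRRTMs (Lrrtm1 to Lrrtm4). They were found by gene symbol in the deposited expression table, where all 9 were among the 17986 genes with a value in every library. RNA was sequenced in bulk from CA1 cut by laser from frozen sections 8 µm thick, from brains that were not perfused. The mice were males aged 3 to 6 months on the C57Bl6 background. One genotype label was wild type (WT) and the other was N3 -/-, that is, deficient in Neil3, which encodes a DNA glycosylase of base excision repair. Home cage mice had no intervention (2 WT-labelled and 2 KO-labelled mice). Exploration mice were trained in an open field with sides of 50 cm, a white cue card and food cues, for 1 week in daily sessions of 20 min, the last ending 20 min before death (3 and 3 mice). Each library is 1 mouse. The labels list 6 further samples under a learning condition, which were not analysed here.

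Neil3 itself went against the genotype labels. In WT-labelled mice it was listed at 0 FPKM in both home cage libraries and at 0, 0 and 0.05 FPKM after exploration. KO-labelled libraries held 13.77 and 15.22 FPKM in the home cage and 15.13, 11.85 and 8.35 FPKM after exploration. The deleted part of the gene is not given in the sources used here, and FPKM per gene cannot show which exons the reads came from. Groups are therefore named by label throughout, and a direction between genotypes is a direction between labels. FPKM (fragments per kilobase of transcript, scaled to the depth of the library) summed to 405718 to 466701 per library, 11114 to 11623 genes reached 1 FPKM, and the spacing of low values put the depth at 18320000 to 19600000 fragments. Markers of CA1 pyramidal neurons summed to between 906.75 and 1030.16 FPKM in every library, so the labelled tissue had its own markers. Those of dentate granule neurons summed to between 1.6 and 3.36 FPKM and those of CA2 and CA3 to between 102.91 and 187.69 FPKM. Choroid plexus markers summed to between 9.39 and 234.65 FPKM. They were highest in WT-labelled home cage library 1, followed by WT-labelled exploration libraries 1 (131.13 FPKM) and 2 (107.7 FPKM).

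Neurexins sit in the presynaptic membrane, and neuroligins and LRRTMs sit across the cleft and bind them. Alternative promoters and splicing of neurexin transcripts set which partners are bound. Nlgn1 is known from excitatory synapses, Nlgn2 from inhibitory synapses, where it binds gephyrin, and Nlgn3 from both. LRRTMs are postsynaptic partners at excitatory synapses and help to hold AMPA receptors there.

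The levels of the 9 genes, given per length in FPKM as mean ± SD over all 10 libraries, fell into 5 tiers. Lrrtm1 was the most abundant (94.4 ± 4.96 FPKM), followed by Nlgn2 (57.8 ± 7.52 FPKM). Nrxn3 (38.6 ± 7.14 FPKM) and Nrxn2 (34.9 ± 5.93 FPKM) came next, and their ranges overlapped. Below them were Lrrtm2 (21.1 ± 1.51 FPKM), Nlgn1 (20.7 ± 2.70 FPKM) and Nlgn3 (19.6 ± 2.21 FPKM), whose ranges also overlapped. Lrrtm4 (1.50 ± 0.643 FPKM) and Lrrtm3 (1.00 ± 0.202 FPKM) were at the low end, with overlapping ranges. Between these tiers the ranges did not overlap, with 2 exceptions. The highest Nrxn3 (48.02 FPKM) and Nrxn2 (45.37 FPKM) libraries lay above the lowest Nlgn2 library (43.74 FPKM), and the highest Nlgn1 library (26.23 FPKM) lay above the lowest Nrxn3 library (24.34 FPKM).

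**Figure D1:**
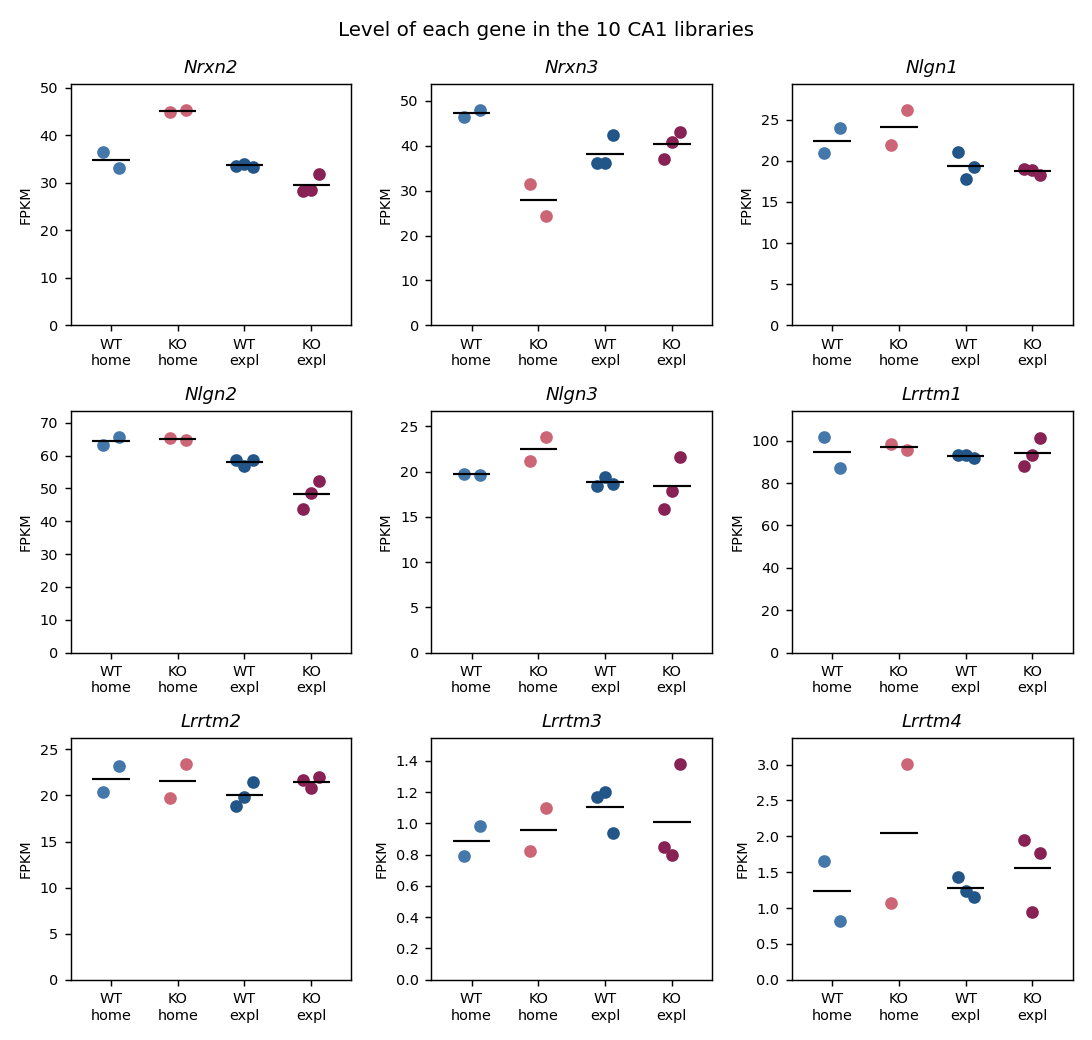
FPKM of each of the 9 genes (y axis, starting at 0) in each library, by group on the x axis; points are libraries and lines are group means (n = 2 in the home cage groups, n = 3 in the exploration groups). Nrxn2 is highest and Nrxn3 lowest in the KO-labelled home cage libraries, Nlgn2 is lowest in the KO-labelled exploration libraries, and in the 4 LRRTM panels the labels overlap within each environment and the environments within each label.

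The plot of FPKM by library shows where the groups separated. Tests below were made with limma on log2(FPKM + 1) over the 11892 genes that reached 1 FPKM in 2 or more libraries. All 9 genes passed that filter. A gene was called at a Benjamini-Hochberg adjusted p under 0.05 over all tested genes, and every log2 change is a difference of log2(FPKM + 1), in which changes of weakly expressed genes look smaller than they are. Since the home cage groups have 2 mice each, the spread was estimated from all 4 groups together. In bulk tissue, fewer cells of a type and less RNA per cell cannot be told apart.

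Nrxn2 and Nrxn3 moved in opposite directions between the genotype labels in the home cage. Nrxn2 (gene ID 18190) lies on chromosome 19 from 6418731 to 6544169 on the plus strand of GRCm38. Its value was 36.42 and 33.19 FPKM in the WT-labelled home cage libraries and 44.95 and 45.37 FPKM in the KO-labelled ones. Both KO-labelled libraries were above both WT-labelled libraries, by 1.30 times in the means. Nrxn2 rose by a log2 change of 0.37 (SE 0.08, limma adjusted p = 0.0377). Nrxn3 (gene ID 18191; chromosome 12 from 88722876 to 90334935, plus strand) went the other way. It held 46.45 and 48.02 FPKM in the WT-labelled libraries and 31.51 and 24.34 FPKM in the KO-labelled ones. Both KO-labelled libraries were below both WT-labelled libraries, with a mean at 0.591 of the WT-labelled mean. Nrxn3 changed by -0.75 (SE 0.12, limma adjusted p = 0.0140). Of all tested genes 3.57% were called in this comparison, against 2 of the 9 genes here, and the libraries of 46.9% of all genes did not overlap, against 3 of 9 (Nrxn2, Nrxn3 and Nlgn3).

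These home cage calls rest on few libraries. In limma fits with 1 library left out, the Nrxn3 call was lost without home cage library 1 (-0.77, adjusted p = 0.134) or 2 (-0.73, adjusted p = 0.0504) of the WT label, or library 2 of the KO label (-0.57, adjusted p = 0.105). It held without each of the other 7. Nrxn2 was called in only 2 of the 10 such limma fits, those without KO-labelled exploration library 1 or 3, and its log2 change ranged from 0.30 to 0.43 over all 10. Marker sums of other cell types differed between the same libraries. Astrocyte markers summed to 149.76 to 166.23 FPKM in the WT-labelled and 232.86 to 278.81 FPKM in the KO-labelled home cage libraries, with 3 of 7 called higher and none of the 7 at 0. CA2 and CA3 markers summed to 113.61 to 178.89 FPKM and 102.91 to 106.88 FPKM, with 0 of 5 tested called and a median log2 change of -1.18. Oligodendrocyte, oligodendrocyte precursor, microglia and endothelium markers each summed higher in both KO-labelled than in both WT-labelled libraries. Called higher were 0 of 7, 1 of 2, 1 of 6 and 1 of 5 tested. Choroid plexus markers summed to 234.65 FPKM in WT-labelled library 1, 17.63 FPKM in WT-labelled library 2 and 9.39 to 14.11 FPKM in KO-labelled libraries. Of 2 tested choroid plexus markers 1 was called lower. Of 6 tested CA1 markers 1 was called higher and 1 lower. The part of any of these in the neurexin values was not tested.

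After exploration neither neurexin was called between the labels. Nrxn2 held 33.59, 33.99 and 33.29 FPKM in the WT-labelled and 28.24, 28.42 and 31.9 FPKM in the KO-labelled exploration libraries. Every KO-labelled library was below every WT-labelled one, but the log2 change of -0.18 (95% interval -0.33 to -0.03) was not called (limma adjusted p = 0.208). Nrxn3 held 36.11, 36.07 and 42.39 FPKM against 37.08, 40.83 and 43.08 FPKM, and these groups overlapped. Its log2 difference was 0.08, with a 95% interval of -0.14 to 0.30. Choroid plexus markers summed to 131.13, 107.7 and 16.2 FPKM in the WT-labelled and 10.52, 12.36 and 16.5 FPKM in the KO-labelled exploration libraries. Of 2 tested 0 were called, with a median log2 change of -2.23. Their part in the values of the 9 genes was not tested. Averaged over both environments, Nrxn3 reached a log2 change of -0.34 (limma adjusted p = 0.0525) and Nrxn2 one of 0.09 (adjusted p = 0.367). None of the 9 genes was called in either comparison with limma, against 0.597% of all genes after exploration and 2.13% averaged over environments; at an unadjusted p under 0.05 there were 2 of 9 in each, beside 2046 and 2399 of all 11892 genes.

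The response to exploration in the KO-labelled mice was again opposite for the neurexins. Nrxn2 fell by 0.60 on the log2 scale (SE 0.08, limma adjusted p = 0.00106), to 0.654 of its home cage mean. Nrxn3 rose by 0.52 (SE 0.11, limma adjusted p = 0.00693), to 1.44 times its home cage mean. For Nrxn2 all 3 exploration libraries were below both home cage libraries, and for Nrxn3 all were above. The KO-labelled home cage libraries are shared between this comparison and the home cage comparison of labels, so the opposite signs of the log2 changes are not independent of each other. Without KO-labelled home cage library 2 the Nrxn3 change was 0.34 and was not called (limma adjusted p = 0.115), while the Nrxn2 call held whichever library was left out. Of the CA2 and CA3 markers, 4 of 5 tested were called higher in the same comparison, beside 28.6% of all tested genes called in either direction. Their sums were 138.52 to 187.69 FPKM after exploration. Of the 7 listed, 2 were at 0 FPKM in KO-labelled home cage library 1 and 1 in library 2. Of 6 tested CA1 markers 2 were called higher and 3 lower. Their sums were 942.77 to 1030.16 FPKM in the home cage and 936.62 to 961.85 FPKM after exploration. The part of either list in the neurexin values was not tested.

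WT-labelled mice showed neither call. Nrxn2 changed by -0.05 (95% interval -0.21 to 0.12), with overlapping libraries. Nrxn3 was lower in all 3 exploration libraries than in both home cage libraries, with a log2 change of -0.30 (SE 0.11, limma adjusted p = 0.132). The difference between the labels in the response to exploration was -0.55 (SE 0.11) for Nrxn2 and 0.83 (SE 0.16) for Nrxn3, both with a limma adjusted p = 0.0496. These were 2 of the 9 genes, beside 0.875% of all tested genes. Both adjusted p-values sat at the threshold, and removing single libraries gave calls for 0 to 2 of the genes.

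The balance of the neurexins can be read without any scaling between libraries. Nrxn2 made up 40.9% to 43.9% of the summed Nrxn2 and Nrxn3 FPKM in the WT-labelled home cage libraries and 58.8% to 65.1% in the KO-labelled ones. After exploration its share was 44.0% to 48.5% in WT-labelled and 41.0% to 43.2% in KO-labelled libraries. The KO-labelled home cage libraries are the only ones here with more Nrxn2 than Nrxn3, at ratios of 1.43 and 1.86, against 0.691 to 0.942 in the other 8 libraries. The summed level of the pair was 81.21 to 82.87 FPKM in WT-labelled home cage libraries and 65.32 to 76.46 FPKM in the other groups.

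**Figure D2:**
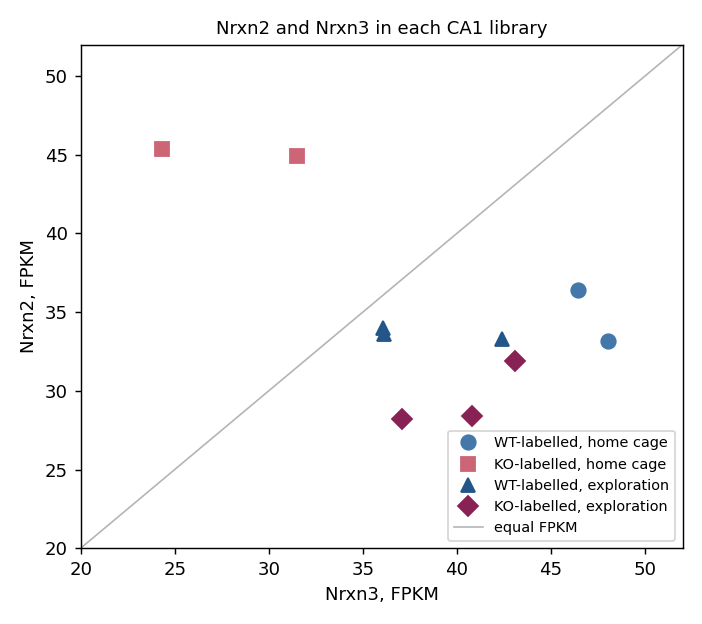
Nrxn3 FPKM (x axis) against Nrxn2 FPKM (y axis) with 1 point per library, coloured by group, both axes from 20 to 52 FPKM, and a line of equal FPKM. The KO-labelled home cage libraries lie above the line and the other 8 libraries below it.

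Of the neuroligins, Nlgn2 and Nlgn1 fell after exploration in the KO-labelled mice and in the average over labels. Nlgn2 (gene ID 216856; chromosome 11 from 69823122 to 69837784, minus strand), the neuroligin of inhibitory synapses, held 63.09 and 65.73 FPKM in the WT-labelled and 65.43 and 64.64 FPKM in the KO-labelled home cage libraries. After exploration it held 58.78, 56.88 and 58.73 FPKM in WT-labelled and 43.74, 48.72 and 52.33 FPKM in KO-labelled libraries. Every exploration library was below every home cage library, and every KO-labelled exploration library was below every WT-labelled one. Nlgn2 fell by 0.43 on the log2 scale in KO-labelled mice (SE 0.08, limma adjusted p = 0.00384), to 0.742 of the home cage mean. Averaged over the labels, Nlgn2 fell by 0.29 (SE 0.06, limma adjusted p = 0.00379). Both calls held whichever library was left out and in each other setting tried. In WT-labelled mice its change of -0.15 was not called (limma adjusted p = 0.300), and the difference between the labels' responses, -0.28, was not called either (adjusted p = 0.236). Between the labels after exploration Nlgn2 differed by -0.27 (95% interval -0.42 to -0.11), and the limma adjusted p = 0.107 missed the threshold. Its home cage difference was 0.01, with an interval of -0.18 to 0.20.

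Nlgn1 (gene ID 192167; chromosome 3 from 25426215 to 26332460, minus strand), the neuroligin of excitatory synapses, held 20.9 and 23.93 FPKM in WT-labelled and 21.96 and 26.23 FPKM in KO-labelled home cage libraries. After exploration it held 21.04, 17.75 and 19.25 FPKM in WT-labelled and 18.98, 18.88 and 18.25 FPKM in KO-labelled libraries. The KO-labelled libraries did not overlap between environments, while 1 WT-labelled exploration library lay above the lowest WT-labelled home cage library. Nlgn1 fell by 0.34 on the log2 scale in KO-labelled mice (SE 0.10, limma adjusted p = 0.0250) and by 0.27 averaged over labels (SE 0.07, adjusted p = 0.0135). Neither call held without KO-labelled home cage library 2 (-0.22 and -0.21, limma adjusted p = 0.270 and 0.0721). The call in KO-labelled mice was also lost without KO-labelled exploration library 2 (-0.35, limma adjusted p = 0.0510) and in a fit of only the groups compared (adjusted p = 0.0593), and the averaged call without WT-labelled home cage library 2 (-0.23, adjusted p = 0.0716). Between the genotype labels Nlgn1 differed by 0.10 in the home cage and by -0.04 after exploration, with overlapping libraries in both.

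Nlgn3 (gene ID 245537; chromosome X from 101299168 to 101325963, plus strand) was not called in any of the 7 comparisons made with all libraries. It held 19.72 and 19.64 FPKM in WT-labelled and 21.17 and 23.85 FPKM in KO-labelled home cage libraries. After exploration it held 18.42, 19.44 and 18.59 FPKM in WT-labelled and 15.84, 17.82 and 21.56 FPKM in KO-labelled libraries. KO-labelled exploration library 3 reached into the home cage range, and the others lay below it. The log2 change in KO-labelled mice was -0.28 (limma adjusted p = 0.0716), and without that library it was -0.40 (adjusted p = 0.0108). Together the 3 neuroligins summed to 103.71 to 109.3 FPKM in WT-labelled and 108.56 to 114.72 FPKM in KO-labelled home cage libraries. After exploration the sums were 94.07 to 98.24 FPKM and 78.56 to 92.14 FPKM. Nlgn2 held 55.7% to 60.8% of the sum in all 10 libraries.

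In the KO-labelled response 4 of the 9 genes were called (Nrxn3 higher, and Nrxn2, Nlgn1 and Nlgn2 lower), against 28.6% of all tested genes, so calls were frequent in this comparison. Libraries did not overlap for 4 of 9, against 52.1% of all genes. In the average over labels 3 of 9 were called, all lower, against 31.9% of all genes. WT-labelled mice gave 0 of 9 calls with limma (1 at an unadjusted p under 0.05, beside 2702 of all 11892 genes), against 6.31% of all genes called, and 3 of 9 without overlap against 47.8%. After exploration 2 of 9 did not overlap between the labels, against 24.9%. The median log2 change of the 9 genes was -0.20 in the KO-labelled response, beside -0.04 over all tested genes, and 0.05 in the home cage comparison of labels, beside -0.02. Home cage and exploration libraries stand in separate blocks of the deposited table, so environment and block cannot be told apart. Marker sums also differed between environments. Interneuron markers summed to 219.77 to 253.93 FPKM in the home cage and 283.51 to 367.57 FPKM after exploration. In the average over labels 3 of 10 of them were called higher, beside 31.9% of all genes called. The same average gave 4 of 7 oligodendrocyte, 4 of 6 microglia and 3 of 7 astrocyte markers called higher. It also gave 2 of 5 tested CA2 and CA3 and 4 of 4 tested blood markers higher. Of 6 tested CA1 markers 2 were called higher and 3 lower. In KO-labelled mice alone no oligodendrocyte, microglia or astrocyte marker was called. Called higher there were 4 of 5 tested CA2 and CA3, 2 of 10 interneuron, 1 of 4 blood and 1 of 2 choroid plexus markers. In WT-labelled mice alone 4 of 7 oligodendrocyte, 3 of 6 microglia and 3 of 7 astrocyte markers were called higher. So were 1 of 10 interneuron and 3 of 4 tested blood markers. The part of any of these in the neurexin and neuroligin values was not tested.

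**Figure D3:**
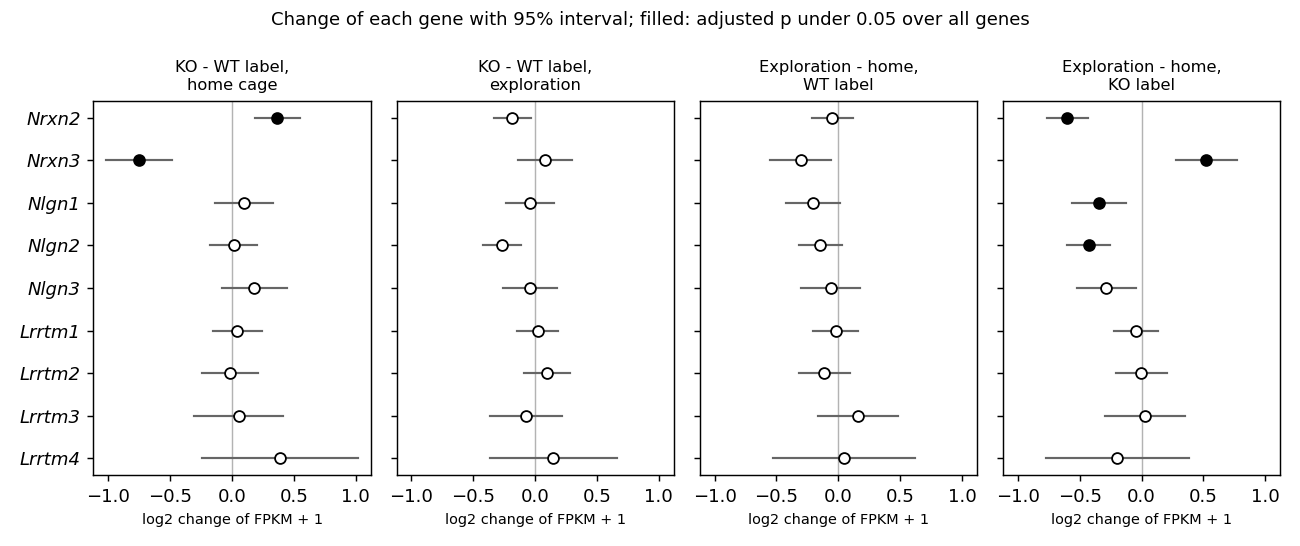
Log2 change (x axis, log2(FPKM + 1) scale) with its 95% interval for each of the 9 genes in 4 comparisons; filled points are called at an adjusted p under 0.05. Nrxn2 and Nrxn3 lie on opposite sides of 0 in the home cage and KO-labelled exploration panels, and the intervals of the 4 LRRTMs include 0 in every panel.

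The LRRTMs did not separate by label or environment. Lrrtm1 (gene ID 74342; chromosome 6 from 77242689 to 77257791, plus strand) held 101.87 and 87 FPKM in WT-labelled and 98.35 and 95.76 FPKM in KO-labelled home cage libraries. After exploration it held 93.03, 93.3 and 91.94 FPKM in WT-labelled and 88.17, 93.36 and 101.06 FPKM in KO-labelled libraries. In each of the 4 comparisons of label or environment its groups overlapped, and its log2 change had a 95% interval of -0.16 to 0.24 between the labels in the home cage and of -0.23 to 0.14 in the KO-labelled response. Lrrtm2 (gene ID 107065) ranged from 18.83 to 23.43 FPKM over the 10 libraries, with a home cage interval of -0.24 to 0.21 on the log2 scale. Lrrtm1 made up 77.7% to 82.0% of the summed LRRTM level in every library.

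Lrrtm3 and Lrrtm4 were weakly expressed. Lrrtm3 (gene ID 216028; chromosome 10 from 63928472 to 64090277, minus strand) held 0.79 to 1.38 FPKM, which came to 56 to 97 fragments per library by the estimated depth. Lrrtm4 (gene ID 243499; chromosome 6 from 80018877 to 80810143, plus strand) held 0.82 to 3.01 FPKM. Its highest library was KO-labelled home cage library 2, while the other library of that group held 1.07 FPKM. The home cage log2 change of Lrrtm4 was 0.39, with an interval of -0.24 to 1.02, so a difference of that size was not detectable here. Lrrtm1, Lrrtm2 and Lrrtm3 each lie inside a catenin gene on the opposite strand (Ctnna2, Ctnna1 and Ctnna3), with overlapping exons only for Lrrtm2, and Nrxn2 overlaps exons of Slc22a12. The use of strand is not given in the sources used here, so reads of such exons cannot be told apart.

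Genes of related adhesion systems were read beside the 9 genes. The 10 lists held 79 genes, of which 72 were tested. In the home cage 8 were called higher and 2 lower in KO-labelled libraries, against 3.57% of all tested genes in both directions together. After exploration no list gene was called between the labels in limma, against 0.597% of all genes. Cbln4, a secreted neurexin ligand, held 1.98 to 2.11 FPKM in WT-labelled and 5.25 to 6.4 FPKM in KO-labelled home cage libraries (log2 change 1.16, limma adjusted p = 0.0186). Igsf21, a neurexin ligand that acts at inhibitory synapses, went from 8.48 to 11.11 FPKM to 18.03 to 20.84 FPKM (0.93, adjusted p = 0.0191). Sparcl1 (hevin), an astrocyte-secreted protein that bridges neurexin and neuroligin, was 122.9 to 129.51 FPKM against 183.29 to 235.27 FPKM (0.71, adjusted p = 0.0205). The astrocyte markers given above differ between the same libraries, and their part in this value was not tested. Gpc4, a glypican made by astrocytes, rose by 0.71 (limma adjusted p = 0.0265).

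Other home cage calls among the lists were Ntng1, which encodes netrin-G1 of axons (0.84 to 1.07 FPKM against 2.79 to 6.28 FPKM, log2 change 1.43, limma adjusted p = 0.0217), and the receptor phosphatase Ptprf (0.92, adjusted p = 0.0447). Cadm1 rose by 0.84 (limma adjusted p = 0.0257) and Cadm2, also of the SynCAM family, fell by 0.56 (adjusted p = 0.0298). Lin7a, a scaffold protein, rose by 0.58 (limma adjusted p = 0.0412). Rbfox1, a neuronal splicing factor, fell by 0.34 (adjusted p = 0.0453), from 175.9 to 191.35 FPKM to 140.91 to 148.68 FPKM. Of these 10 calls, 0 held when home cage library 1 of the WT label or library 2 of the KO label was left out, and 3 held when library 2 of the WT label was. With no filter on low values, which tests more genes, 0 of the 10 were called.

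In the response to exploration, calls in these lists were mostly downward in KO-labelled mice and in the average over labels. In WT-labelled mice 1 of the 72 tested was called lower and 0 higher, against 6.31% of all tested genes called. The median log2 change of the lists there was -0.08, beside -0.02 over all tested genes. In KO-labelled mice 34 of 72 were called lower and 4 higher, with a median log2 change of -0.29. Over all 11892 tested genes 1971 were called lower and 1429 higher (28.6% together), with a median of -0.04. The share of these all-gene calls that were higher was 42.0% as deposited and 50.4% with size factors. Without KO-labelled home cage library 2 the list counts were 9 lower and 1 higher. Averaged over labels 30 were lower and 3 higher, against 2286 lower and 1504 higher over all tested genes (31.9% together), and 16 of the list genes were lower without that library or 19 lower without WT-labelled home cage library 2. In the same average the LAR-type phosphatase system gave 12 of 16 lower, among them Ntrk3, the receptor of neurotrophin-3 that also binds a phosphatase at the synapse (log2 change -0.42, limma adjusted p = 0.000882). All 4 netrin-G system genes were lower, with Ntng1 at -0.72 (limma adjusted p = 0.0103) and Ntng2 at -0.44 (adjusted p = 0.00621). The mean of Ntng1 went from 4.54 to 0.837 FPKM in KO-labelled mice and from 0.955 to 1.10 FPKM in WT-labelled mice. In the latrophilin, FLRT and teneurin list 5 of 9 were lower, led by Tenm4, a teneurin, at -0.86 (limma adjusted p = 0.000336). Tenm4 held 8.09 to 9.78 and 10.1 to 15.05 FPKM in the home cage groups and 5.5 to 6.94 and 4.29 to 4.53 FPKM after exploration. Mdga1, which blocks neuroligin from binding neurexin, fell by 0.39 (limma adjusted p = 0.0193), and Grid1, the delta receptor that binds cerebellins, fell by 0.29 (adjusted p = 0.00732). The Mdga1 call was lost without WT-labelled home cage library 1 (limma adjusted p = 0.0828) or KO-labelled home cage library 2 (adjusted p = 0.101). Lin7b (0.50, adjusted p = 0.00631), Cadm2 (0.26, adjusted p = 0.0236) and Rbfox3, a neuronal marker and splicing factor (0.21, adjusted p = 0.0132), were higher, each by limma. Of the same lists, Cadm1 (-0.37, limma adjusted p = 0.0234), Lin7a (-0.33, adjusted p = 0.0158) and Rbfox2 (-0.36, adjusted p = 0.00478) were lower. Igsf21 (-0.55, limma adjusted p = 0.00402), Ptprf (-0.51, adjusted p = 0.0206), Adgrl3 (-0.48, adjusted p = 0.00275) and Bace1 (-0.22, adjusted p = 0.0182) were lower too. The means of Cadm1, Igsf21 and Ptprf did not fall in WT-labelled mice. The Cadm2 mean went from 37.7 to 59.98 FPKM in KO-labelled mice and from 55.7 to 50.35 FPKM in WT-labelled mice, and without KO-labelled home cage library 2 its averaged change was 0.16 and was not called (limma adjusted p = 0.104). Its call was also lost without home cage library 2 of the WT label (limma adjusted p = 0.0951), without WT-labelled exploration library 3 (adjusted p = 0.0545) or with quantile normalization (adjusted p = 0.0730). With quantile normalization the Rbfox3 change was 0.09 and was not called (limma adjusted p = 0.243), and its call was also lost without WT-labelled home cage library 2 (adjusted p = 0.0764). Over the 10 fits with 1 library left out, Cadm1 was called in 7, and Lin7a, Ptprf and Bace1 in 8 each. Igsf21, Adgrl3 and Rbfox2 were called in all 10. Cadm1 was called in 5 of 6 other settings.

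**Figure D4:**
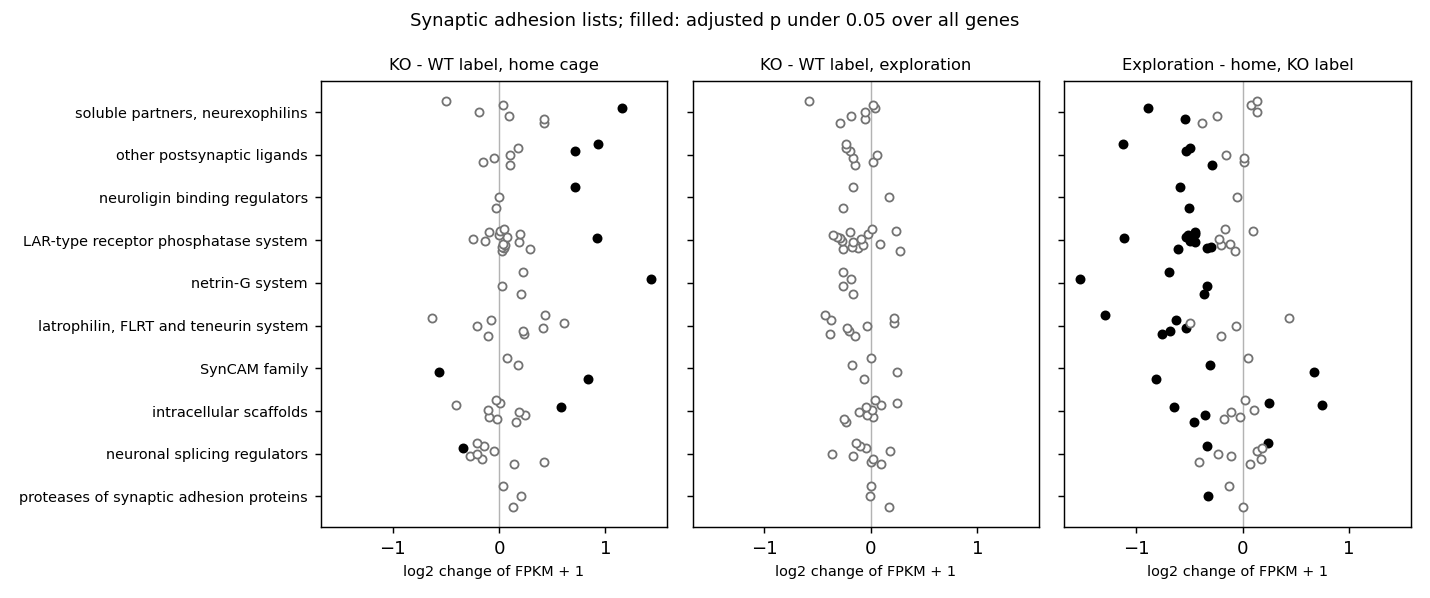
Log2 change (x axis, difference of log2(FPKM + 1)) of each of the 72 tested genes of the 10 lists (rows) in the home cage comparison of labels, the exploration comparison of labels and the KO-labelled response to exploration; points are genes, and filled points are called at an adjusted p under 0.05. The middle panel has no filled point, and the right panel has 34 to the left of 0 and 4 to the right.

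Most like each gene in pattern over the 10 libraries (Pearson r on log2(FPKM + 1) less the mean of the environment, among at least 8235 genes) were the following, as a description. Nrxn2 was most like Vamp2 (0.963) and Syp (0.950), of synaptic vesicles, and Nrxn3 most like Olfm3 (0.991) and Kcnab1 (0.989), a potassium channel subunit. Nlgn2 was most like Zfp777 (0.955) and Prrt1 (0.939), Nlgn1 like Pcbd2 (0.926) and Csnk1g1 (0.918), and Nlgn3 like Mapk8ip2 (0.952) and Igfbp7 (0.930). Lrrtm1 was most like Anxa6 (0.934), Lrrtm2 like Phf13 (0.920) and Ppargc1a (0.899), Lrrtm3 like Cnot11 (0.913) and Rcan2 (0.883), and Lrrtm4 like Nipa1 (0.896) and Nek7 (0.896).

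The 250 bases before a transcript start are shown for 1 gene that rose and 1 that fell in the KO-labelled response, Nrxn3 and Nlgn2, as RefSeq (GRCm38.p6) has them. For Nrxn3 it is start 3 of 3, at chr12:89812233-89812482 on the plus strand, and for Nlgn2 it is chr11:69837785-69838034 on the minus strand. Capitals mark CpG dinucleotides, 12 in the Nrxn3 window and 18 in the Nlgn2 window, beside a median of 6 over all 32851 windows of the same length. The GC content is 60% and 67.6%, beside a median of 52.4%. Windows at the other Nrxn3 starts hold 2 and 5 CpG dinucleotides, with a GC content of 45.6% and 46.8%.

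Nrxn3 start 3: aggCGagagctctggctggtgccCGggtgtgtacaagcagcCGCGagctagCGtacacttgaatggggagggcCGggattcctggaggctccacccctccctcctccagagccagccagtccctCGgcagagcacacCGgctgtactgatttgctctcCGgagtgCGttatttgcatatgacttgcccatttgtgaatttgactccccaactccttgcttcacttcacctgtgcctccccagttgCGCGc

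Nlgn2: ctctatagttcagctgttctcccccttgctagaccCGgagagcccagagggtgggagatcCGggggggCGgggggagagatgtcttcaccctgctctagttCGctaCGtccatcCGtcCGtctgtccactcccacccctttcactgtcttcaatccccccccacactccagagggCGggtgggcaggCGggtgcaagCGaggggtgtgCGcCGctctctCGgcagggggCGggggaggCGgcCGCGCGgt

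Matches to 5 motifs were counted on both strands of the 10 windows of 6 genes. The Nlgn2 window holds 3 matches to GGGCGG (a GC-box, in 32.7% of all windows), at 185, 78 and 24 bases before the start. A second Nrxn3 window holds 1 match to TGANTCA (an AP-1 site, in 6.75% of all windows). TGACGTCA, TGACG (in 1.55% and 17.8% of all windows) and CACGTG (6.02%) are in none of the 10 windows. TGACG is contained in TGACGTCA.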

How the data were processed

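The authors deposited FPKM for every gene in each library. The labels' processing notes list HISAT, StringTie, GATK, Bowtie2 and RSEM with GRCm38 (mm10), without roles or versions, and strand and the joint normalization of the 2 blocks are not given in the sources used here. The 9 genes and all lists were chosen with earlier results of these data known. Blocks of 19156 (exploration) and 18257 (home cage) genes were joined on the gene ID, giving 17986. FPKM are not counts, so no count test was run. limma (3.58.1, R 4.3.3) was fitted with a variance trend on log2(FPKM + 1), with 1 mean per group over all 10 libraries (6 residual and a median of 5.71 prior degrees of freedom), for genes that reached 1 FPKM in 2 or more libraries. Replicate numbers only name libraries. From each list, up to 2 called genes with the largest absolute log2 change were named in 3 comparisons: genotype in the home cage, genotype after exploration and exploration averaged over labels. The 2 most similar genes per member needed a mean of at least 5 FPKM, and 1 of them is not reported here. Alternatives were a pseudocount of 0.1, no filter, 5 FPKM in 2 libraries, size factors, quantile normalization, no variance trend, only the groups compared and leaving out each library; for the named list genes they were chosen after seeing the data. The script was tested on simulated data. Positions are from GENCODE on GRCm38.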

Additional observations from a re-analysis of the deposited data

Results flagged for a closer look

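The response to exploration differed between the genotype labels for both neurexins, by a test of the difference itself: -0.55 for Nrxn2 and 0.83 for Nrxn3 on the log2(FPKM + 1) scale, each with a limma adjusted p = 0.0496. Nrxn2 was lower and Nrxn3 higher after exploration in all 3 KO-labelled libraries than in both home cage libraries, while in WT-labelled mice Nrxn3 was lower in all 3. Without KO-labelled home cage library 2 the differences were -0.55 and 0.65, and neither was called (adjusted p = 0.198 and 0.194, limma). Over the 10 fits that leave out a library, the adjusted p ranged from 0.0307 to 0.223 for Nrxn2 and from 0.00959 to 0.223 for Nrxn3.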

How the results depend on the processing

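Across the alternatives no change of a member that was called turned its sign; of 1029 recomputed changes of the 9 genes, 978 kept their side of the threshold, 44 lost and 7 gained a call. In the home cage comparison of labels the count of 2 called members became 0 without a filter, 1 with size factors, 1 with no variance trend, 1 with only the groups compared and 0 to 2 over left-out libraries. Averaged over environments the count of 0 became 1 (Nrxn3) with the 5 FPKM filter and 1 with quantile normalization, and 0 to 1 over left-out libraries. In WT-labelled mice 1 (Nrxn3, adjusted p = 0.0401 by limma) was called with only the groups compared. The KO-labelled response (4) had 3 with only the groups compared, where Nlgn1 was not called, and 2 to 5 over left-out libraries, and the averaged response 2 to 4. For the difference between the labels' responses, 2 became 0 with a pseudocount of 0.1, 0 without a filter, 1 with size factors, 0 with no variance trend and 0 to 2 over left-out libraries. After exploration no member was called between labels in any setting. Over all genes, calls over left-out libraries and over the other settings were 13 to 588 and 47 to 571 in the home cage (425 as reported), 17 to 104 and 16 to 82 after exploration (71), 28 to 319 and 54 to 427 averaged over environments (253), 84 to 1004 and 492 to 1710 in the WT-labelled response (750), 505 to 3568 and 1700 to 3511 in the KO-labelled response (3400), 1916 to 4248 and 2918 to 3934 in the averaged response (3790), and 0 to 436 and 0 to 136 for the difference in response (104). The share of calls that were higher, averaged over environments, was 36.4% as deposited, 43.8% with size factors and 50.4% with quantile normalization. In the same order it was 42.0%, 50.4% and 49.1% in the KO-labelled response and 39.7%, 49.2% and 48.9% in the averaged response. In the WT-labelled response it was 32%, 37.3% and 40.6%. Causes were not tested. No paired analysis was possible because the labels give no shared replicate numbers. FPKM near 1 limit Lrrtm3 and Lrrtm4.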
